A study of Mus musculus with 9 samples.

Results

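mmu-miR-204-5p, mmu-miR-204-3p and mmu-miR-211-5p are the mature miRNAs of the Trpm-hosted genes Mir204 and Mir211 that were followed here in the mouse hippocampus. They were taken by name as 3 of the 1448 mature miRNAs in the deposited table. The rule uses names alone, but it was set with earlier results of these data known. Small RNA was sequenced from the hippocampus of male C57BL/6J mice in a saline group, an LPS group and an LPS + GAS group, with 3 libraries in each. The saline group received 0.9% saline. The LPS group received a single intraperitoneal dose of lipopolysaccharide, a bacterial endotoxin that induces neuroinflammation, at 1 mg/kg, and its label gives the saline as 0.12%. The LPS + GAS group received the same dose of LPS and then gastrodin (GAS), a phenolic glucoside, at 100 mg/kg, which the labels place 1 h after LPS although the study's own text is not uniform on this order. The labels number the libraries within a group and do not tie each to a mouse, so the p-values measure the spread between these libraries.

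A miRNA gene is transcribed as a hairpin whose stem gives a 5p and a 3p strand, and the strand that is kept in the silencing complex pairs with messenger RNAs mainly through its seed, bases 2 to 8. Mir204 lies in Trpm3 and Mir211 in Trpm1, which encode cation channels of the TRPM family, and intronic miRNAs can be made from the transcript of their host. In the brain, miR-204-5p is known as an abundant miRNA of the choroid plexus, the epithelium that secretes cerebrospinal fluid and that lies against the hippocampus in the lateral ventricle. miR-211 is best known from pigment cells, where TRPM1 is transcribed.

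The mature sequences are shown with the seed in capitals, because the 5p strands of both genes carry one seed while the 3p strands do not. They are RefSeq's for GRCm38.p6, each written 5′ to 3′.
miR-204-5p: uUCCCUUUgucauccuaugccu
miR-211-5p: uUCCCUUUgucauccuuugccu
miR-204-3p: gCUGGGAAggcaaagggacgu
miR-211-3p: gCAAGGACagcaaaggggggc

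miR-204-5p and miR-211-5p had 21 of 22 bases in common and differed by A17U, counted from the 5′ end with the base of miR-204-5p first. The 3p strands, compared from their first base, had 14 of 21 bases in common and different seeds. Among all 1448 listed miRNAs, no other row had the seed UCCCUUU of the 5p strands or lay within 1 substitution of them, and no row had the seed CUGGGAA of miR-204-3p. Reads of miR-204-5p and miR-211-5p are thus told apart by a single base.

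The hairpins show where the strands lie in each precursor, with the 5p and then the 3p strand in capitals.
Mir204: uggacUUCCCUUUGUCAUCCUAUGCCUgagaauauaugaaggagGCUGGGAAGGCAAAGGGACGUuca
Mir211: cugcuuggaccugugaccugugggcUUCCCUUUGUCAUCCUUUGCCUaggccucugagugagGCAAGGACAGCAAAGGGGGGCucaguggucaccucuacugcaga

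In GRCm38.p6, Mir204 is at chr19:22750605-22750672 on the plus strand. It lies in an intron of 33462 bp of Trpm3 (chr19:22139046-22995410, plus strand) in 12 of the 15 coding transcripts that span it. Mir211 is at chr7:64205806-64205911 on the plus strand, in an intron of 3682 bp of Trpm1 (chr7:64153835-64269775, plus strand) in 6 of 8 such transcripts. Neither hairpin overlapped an annotated exon of its host in GENCODE release M21, and both are transcribed in the direction of the host.

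The libraries held 10119758 to 11457656 reads on miRNAs, and 628 miRNAs passed the filter of at least 10 reads in at least 3 libraries, all 3 described here among them. Levels are given as CPM, counts per 1000000 reads of the library's total scaled by its TMM factor, and were not divided by length because the strands are of 21 or 22 bases. The neuronal miRNAs miR-124-3p, miR-9-5p, miR-128-3p, miR-138-5p and miR-132-3p summed to 86542 to 127095 CPM in every library. These are general neuronal miRNAs, so their level does not test which brain region was taken. No other table of these animals was analysed here, and neither Trpm3 nor Trpm1 messenger RNA was measured in these libraries.

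miR-204-5p was among the most abundant miRNAs of the hippocampus but differed widely between libraries of one group. In the saline group it was read 281530, 101703 and 102438 times in replicates 1 to 3. Replicate 1 thus stood above the other two, which lay close together. In the LPS group its reads were 210128, 114092 and 90453, again with replicate 1 the highest. In the LPS + GAS group they were 556435, 115129 and 246242, so that replicates 1 and 3 were high and replicate 2 was near the lower libraries of the other groups. It took 0.885% (95% exact binomial interval 0.879% to 0.891%) of all reads in LPS replicate 3 and 5.20% (5.18% to 5.21%) in LPS + GAS replicate 1, where it was the miRNA with the fifth highest count. These intervals, like the others below, cover counting error only and take each read as an independent count, which was not tested.

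Group means of miR-204-5p were 15404 CPM ± 9972 (SD, n = 3) in saline, 13163 ± 6714 in LPS and 29100 ± 20676 in LPS + GAS. Over the 9 libraries it averaged 19222 CPM, which placed it 16th, between let-7i-5p at 19600 CPM and let-7g-5p at 17727 CPM. Those neighbours ranged from 13822 to 25388 and from 12443 to 23840 CPM, whereas miR-204-5p ranged from 8994 to 51934 CPM. The order of the 3 was thus not resolved beyond their spread.

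miR-204-3p, the other strand of the same hairpin, was far less abundant. It was read 1045, 442 and 534 times in the saline libraries, 1066, 606 and 240 times in the LPS libraries and 1149, 584 and 1847 times in the LPS + GAS libraries. Replicate 1 was again the highest in saline and LPS, while replicate 3 was the highest in LPS + GAS. Its group means were 64.2 CPM ± 31.7 (SD, n = 3) in saline, 60.2 ± 41.9 in LPS and 115 ± 59.8 in LPS + GAS. With 79.7 CPM on average it lay between miR-412-5p at 81.7 and miR-132-3p at 79.2 CPM, whose ranges of 60.9 to 117 and 55.4 to 106 CPM fell inside its own range of 24.1 to 178 CPM.

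miR-211-5p, which carries the seed of miR-204-5p but comes from Trpm1, was the least abundant of the 3. Its reads were 463, 133 and 128 in saline, 118, 247 and 142 in LPS and 590, 156 and 333 in LPS + GAS. Saline replicate 1 and LPS + GAS replicates 1 and 3 were high, as for miR-204-5p, but LPS replicate 1 was among the lowest libraries. It was at 11.7 CPM beside 11.8 CPM in saline replicate 2, and the exact binomial intervals of their read shares overlapped, so the lowest place was not resolved. The group means were 23.0 CPM ± 18.4 (SD, n = 3) in saline, 15.5 ± 4.52 in LPS and 34.3 ± 19.7 in LPS + GAS. Its average of 24.3 CPM was next to those of miR-25-3p (24.3 CPM, range 18.4 to 30.0) and miR-200c-3p (24.0 CPM, range 10.7 to 47.8).

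**Figure D1:**
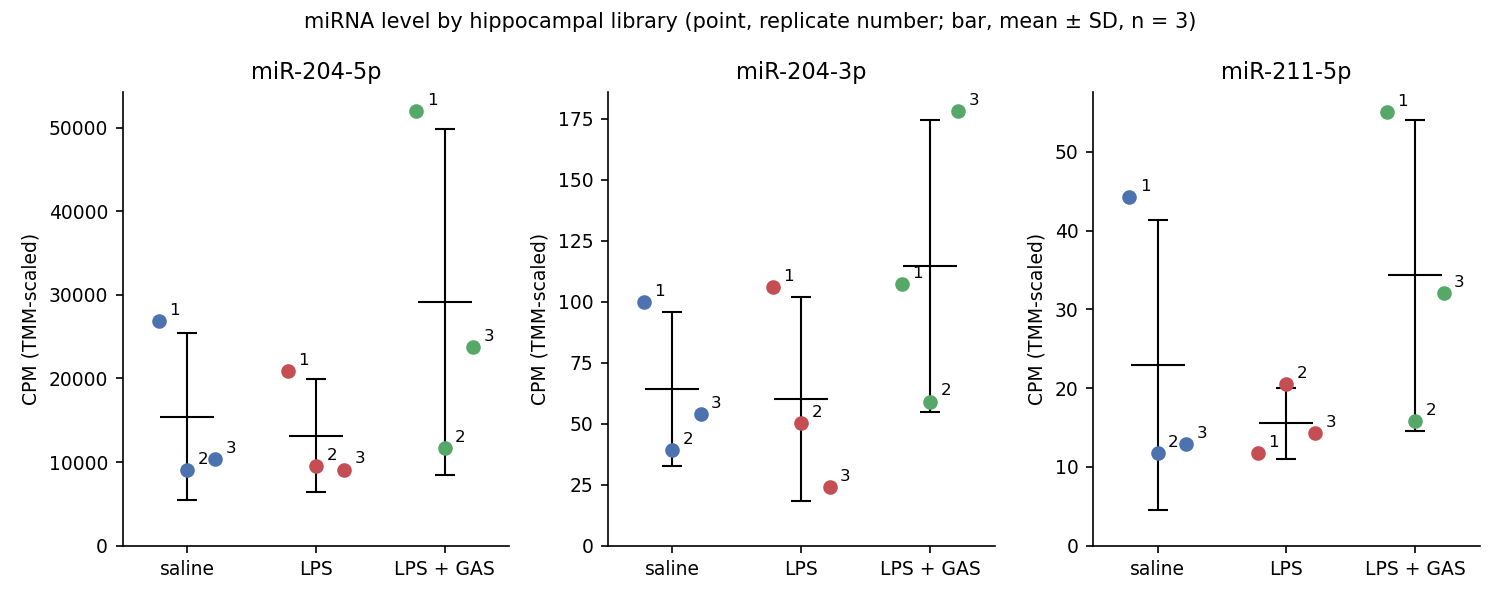
Level of miR-204-5p, miR-204-3p and miR-211-5p in CPM (linear axes from 0) in the 3 libraries of the saline, LPS and LPS + GAS groups, with the replicate number beside each point and the mean ± SD of the group in black. The groups overlap for each miRNA, and LPS + GAS replicate 1 reaches 51934 CPM of miR-204-5p against 11645 CPM in LPS + GAS replicate 2.

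The spread of the 3 miRNAs within groups was wide for this table. The within-group SD on the log2(CPM + 1) scale was 0.89 for miR-204-5p, 0.85 for miR-204-3p and 0.81 for miR-211-5p, against a median of 0.28 over all 628 tested miRNAs. Only 19, 23 and 28 of the 628 had a higher value. The standard errors in the comparisons below follow from this, being 0.57 to 0.60 for these miRNAs and 0.28 for the median miRNA.

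The first comparison asked which miRNAs LPS changed relative to saline. The log2 fold change of miR-204-5p was −0.23 (standard error 0.59, n = 3 per group, edgeR adjusted p = 0.992), from 15404 to 13163 CPM. For miR-204-3p it was −0.094 (standard error 0.57) and for miR-211-5p −0.56 (standard error 0.57), with the same edgeR adjusted p. The groups overlapped for each of them, and 0 of the 3 were called (adjusted p of 0.05 or less with a change of 1 or more on the log2 scale in either direction), where 0% of all 628 miRNAs were called (edgeR). Groups did not overlap for 0 of the 3, against 3.82% of the 628. The 95% interval of miR-204-5p ran from −1.55 to 1.09. Without saline replicate 1, the high library, the values turned to 0.48, 0.41 and 0.38, so not even a direction was resolved. miR-204-3p also turned to 0.040 without LPS replicate 2 and to 0.29 without LPS replicate 3. Of the 628, 15 had an unadjusted edgeR p under 0.05, none of them among these 3, and DESeq2 called 1 miRNA and limma voom 0, again none of these.

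The next comparison asked which miRNAs GAS changed in LPS-treated mice. All 3 had positive log2 fold changes in LPS + GAS vs LPS, 1.14 (standard error 0.60) for miR-204-5p, 0.93 (0.57) for miR-204-3p and 1.14 (0.58) for miR-211-5p, each with an edgeR adjusted p of 0.903 (n = 3 per group). The medians of CPM were 23721 against 9478, 107 against 50.3 and 32.1 against 14.3. None of the 3 passed the test, and 0% of the 628 miRNAs were called (edgeR). The groups overlapped in each case, since LPS + GAS replicate 2 lay below LPS replicate 1 for both miR-204 strands and below LPS replicate 2 for miR-211-5p, whereas 8.6% of the 628 had groups that did not overlap. Exact two-sided permutation tests on log2(CPM + 1) gave p = 0.2 for each, where 3 libraries against 3 cannot go below 0.1.

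The absolute log2 fold change reached 1 for miR-204-5p and miR-211-5p in this comparison, and for 29 of the 628 miRNAs (4.62%). The 95% interval of the difference ran from −0.19 to 2.48 for miR-204-5p, from −0.35 to 2.21 for miR-204-3p and from −0.15 to 2.44 for miR-211-5p. An absence of change was thus not shown either. At an unadjusted p under 0.05, edgeR gave 23 of the 628 and none of these 3, whereas DESeq2 gave 2 of the 3. The share of all 628 under that DESeq2 limit was not counted, so the 2 have no background to be read against. After adjustment edgeR, DESeq2 and limma voom all called 0 of the 628. One library carried much of the size: without LPS + GAS replicate 1 the value of miR-204-5p was 0.43 and that of miR-211-5p 0.62, and without LPS + GAS replicate 3 that of miR-204-3p was 0.49. In the other direction, leaving out LPS replicate 1 gave 1.65 and 1.62 for the miR-204 strands.

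LPS + GAS vs saline shares its LPS + GAS libraries with the previous comparison and its saline libraries with the first, so the 3 sets of values are not independent. The log2 fold changes were 0.92 (standard error 0.59) for miR-204-5p, 0.84 (0.57) for miR-204-3p and 0.58 (0.57) for miR-211-5p, each with an edgeR adjusted p of 0.998 (n = 3 per group). Again 0 of the 3 were called, against 0.159% of all miRNAs (1 of 628), and 0 of the 3 had groups that did not overlap, against 7.32%. Exact permutation p-values were 0.4, 0.2 and 0.5, and the 95% interval of miR-204-5p ran from −0.41 to 2.25. Neither these tests nor the interval use the replicate number. Libraries of the same number deviated from their group means together in this comparison. Within each of the 3 numbers, each of the 3 miRNAs was higher in LPS + GAS than in saline, for miR-204-5p at 51934 against 26893, 11645 against 8994 and 23721 against 10325 CPM. The labels do not say that libraries of the same number are paired. The share of the 628 miRNAs with this same order was not counted, so the order is not read as a result about these 3. With the replicate number as a block the log2 fold change of miR-204-5p was 0.87 (standard error 0.22, edgeR adjusted p = 0.645). Those of miR-204-3p and miR-211-5p were 0.93 and 0.67, with edgeR adjusted p of 0.998, so that 0 of the 3 were called here too. Without LPS + GAS replicate 1 and with no block, the log2 fold change of miR-204-5p fell to 0.24 and that of miR-211-5p to 0.10, while without saline replicate 1 they were 1.63 and 1.52. miR-204-3p ranged from 0.43 without LPS + GAS replicate 3 to 1.34 without saline replicate 1.

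**Figure D2:**
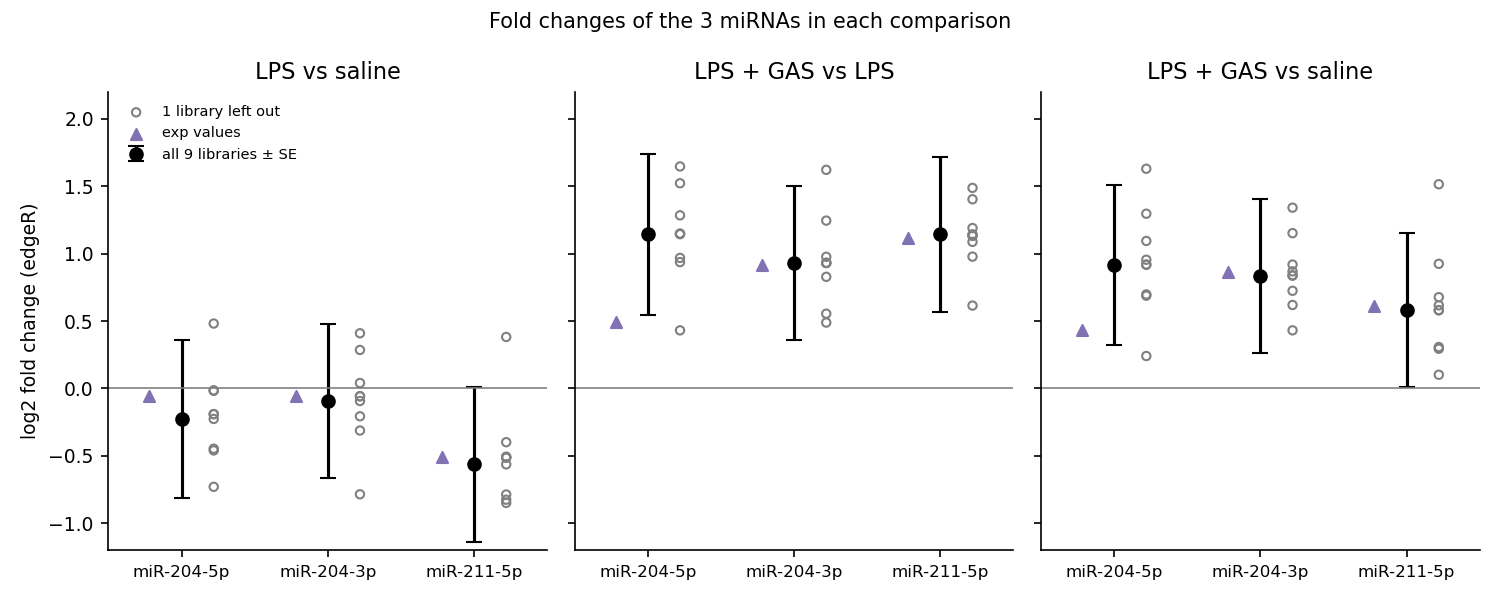
Log2 fold change from edgeR (vertical axis) of the 3 miRNAs in each comparison, as black points with the standard error over all 9 libraries, open circles for the fits with 1 library left out and triangles for the fit on the deposited exp values. In LPS vs saline the circles lie on both sides of 0 for each miRNA, and in LPS + GAS vs LPS those of miR-204-5p run from 0.43 to 1.65.

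Since a ratio of reads within a library needs no library total, the strands were also compared with each other. For every 100 reads of miR-204-5p there were 0.206 of miR-204-3p in LPS + GAS replicate 1 and 0.750 in LPS + GAS replicate 3, the lowest and the highest of the 9 libraries. Thus the 5p strand outnumbered the 3p strand by 133 to 484 times, and the ratio changed 3.63-fold between 2 libraries of one group. In saline the ratio was 0.371%, 0.435% and 0.521%, and in LPS it was 0.507%, 0.531% and 0.265%. The exact binomial intervals of the lowest (0.194% to 0.218%) and of the highest library (0.711% to 0.779%), as shares of both strands, were far apart. Counting error of independent reads thus does not cover this range. On the deposited exp values, described below, LPS + GAS replicate 1 was at 0.799% and was not the lowest.

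Group means of the strand ratio were 0.442% ± 0.0754 (SD, n = 3) in saline, 0.435% ± 0.147 in LPS and 0.488% ± 0.272 in LPS + GAS. The differences of the mean log2 ratio were −0.078 for LPS vs saline, 0.045 for LPS + GAS vs LPS and −0.033 for LPS + GAS vs saline, with exact two-sided permutation p-values of 0.9, 1 and 0.9. No difference in strand ratio beyond the spread of the libraries was thus found in these 3 comparisons, and each direction turned with at least 1 library left out.

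Among reads with the seed UCCCUUU, 99.9% were of miR-204-5p. Per 100 reads of miR-204-5p there were 0.164, 0.131 and 0.125 reads of miR-211-5p in saline, 0.0562, 0.216 and 0.157 in LPS and 0.106, 0.136 and 0.135 in LPS + GAS. On reads, the lowest and the highest value were both in the LPS group, in replicates 1 and 2. Group means were 0.140% ± 0.0213 (SD, n = 3), 0.143% ± 0.0811 and 0.126% ± 0.0169, and the differences in mean log2 ratio were −0.16, 0.0086 and −0.16, with exact permutation p-values of 0.9, 1 and 0.6. With Benjamini-Hochberg adjustment over the 6 ratio tests, every exact permutation p was 1.

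**Figure D3:**
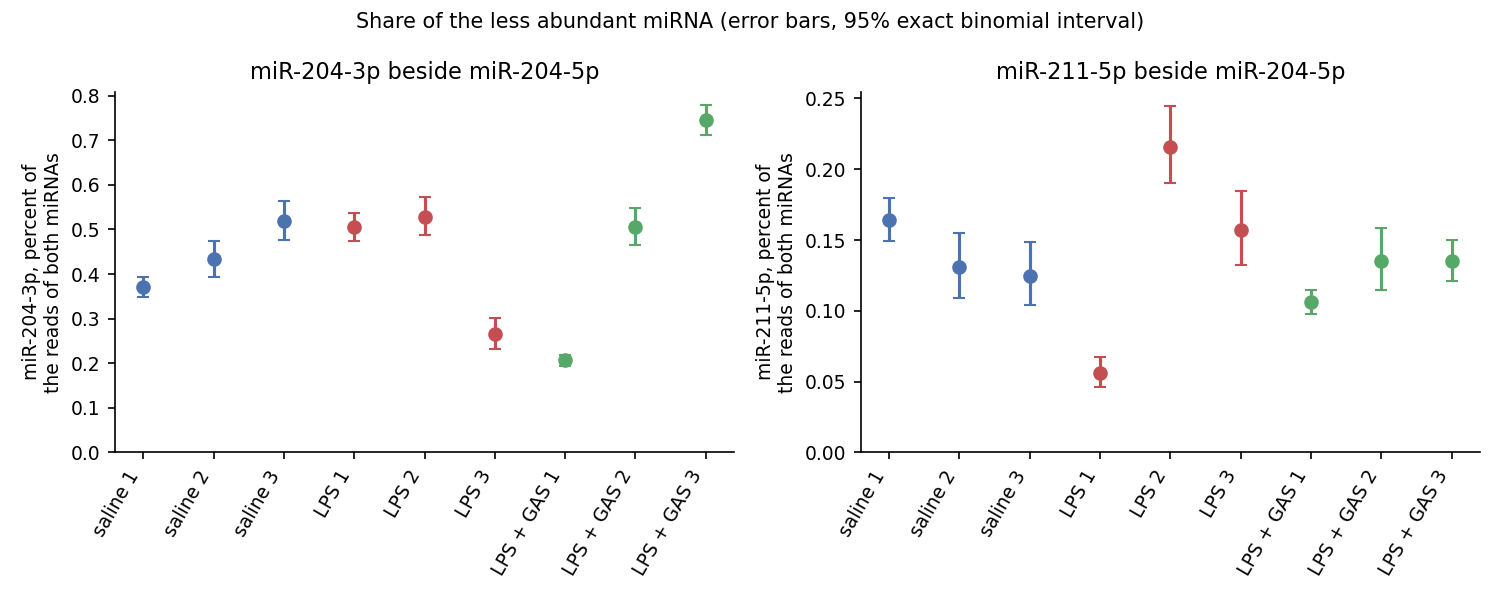
Reads of miR-204-3p (left) and of miR-211-5p (right) as a percent of the reads of that miRNA and miR-204-5p together (vertical axes from 0), in each library, with 95% exact binomial intervals that cover counting error only. LPS + GAS replicates 1 and 3 hold the lowest and the highest share of miR-204-3p, and LPS replicates 1 and 2 those of miR-211-5p.

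The other strand of Mir211, miR-211-3p, had 0 reads in all 9 libraries, as did 101 rows of the table in all. With 3 reads taken as the upper limit of a count of 0, against 2310 reads of miR-211-5p, this allows a strand ratio of up to 0.130%. For Mir204 the ratio over the same libraries was 0.413%, or 7513 reads against 1818150. At that ratio 9.55 reads of miR-211-3p would have been counted. The limit and this number take all 2310 reads as true miR-211-5p, which was not tested.

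A single base separates miR-211-5p from a miRNA that was counted far more often, so its ratio was set beside other such pairs. In 12 pairs of listed miRNAs of equal length that differ by 1 substitution, with at least 100000 reads of the more abundant one, the less abundant one made up 0.127% (miR-211-5p beside miR-204-5p) to 91.4% (miR-27b-3p beside miR-27a-3p) of the other's reads. miR-378c beside miR-378a-3p was at 0.129%, and the remaining 10 pairs were at 14.2% or more. Library by library the percentages of miR-211-5p (0.0562% to 0.216%) and miR-378c (0.0908% to 0.207%) overlapped, so their order was not resolved. Whether misread or mismatched reads of miR-204-5p entered its count was not tested. The ratio of miR-211-5p to miR-204-5p changed 3.86-fold over libraries, with intervals of 0.0465% to 0.0672% in LPS replicate 1 and 0.190% to 0.245% in LPS replicate 2.

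By their level across libraries, the miRNAs most like miR-204-5p were miR-34c-3p, miR-34c-5p, miR-34b-5p, miR-34b-3p and miR-448-3p. Pearson's r of log2(CPM + 1) over the 9 libraries was used only to choose these 5 among the 625 tested miRNAs outside the 3 described here, with no test. It was 0.982, 0.981, 0.976, 0.974 and 0.956 for these, and its median over all 627 other tested miRNAs was 0.018. miR-34b and miR-34c are known from multiciliated cells, which in the brain are those of the ependyma and the choroid plexus. miR-448 lies in an intron of Htr2c, a serotonin receptor gene strongly expressed in choroid plexus.

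These miRNAs belong to a marker list of choroid plexus and multiciliated cells, made of the Htr2c intron cluster (miR-448, miR-764, miR-1264, miR-1298 and miR-1912) and of the miR-34b/c and miR-449 families. Of its 19 names, 18 were in the table and 13 were tested. miR-449c-3p was at 0 reads in all libraries and miR-449b was not in the table. The summed level of the 13 was 3694, 564 and 855 CPM in saline replicates 1 to 3, 2054, 850 and 572 CPM in LPS and 7151, 617 and 3493 CPM in LPS + GAS. In order of this sum the libraries fell into 5 at 564 to 855 CPM and 4 at 2054 to 7151 CPM, which were saline replicate 1, LPS replicate 1 and LPS + GAS replicates 1 and 3.

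The cut between the 5 and the 4 libraries was set at the widest gap of the summed level. miR-204-5p was higher in each of the 4 than in any of the 5, at 20913 to 51934 CPM against 8994 to 11645 CPM. Its values also lay apart within the 4, where LPS + GAS replicate 1 at 51934 CPM stood above saline replicate 1 at 26893 CPM. miR-204-3p was higher in each of the 4 too, at 99.8 to 178 CPM against 24.1 to 59.1 CPM. miR-211-5p was not, at 11.7 to 55.1 CPM against 11.8 to 20.5 CPM, because of LPS replicate 1. Of the 612 tested miRNAs that were neither on the list nor described here, 6 were higher in each of the 4 libraries than in any of the 5. The markers themselves made the split, so their values on either side only describe it. Of the 13 tested markers, 10 were higher in each of the 4 libraries than in any of the 5, while miR-448-5p, miR-1298-3p and miR-449a-5p were not. Among the 10, miR-764-5p and miR-1912-3p were apart by little, at 18.7 and 0.398 CPM in LPS replicate 1 against 18.6 and 0.249 CPM in LPS replicate 2. miR-1912-3p passed the filter on reads only through saline replicate 1 and LPS + GAS replicates 1 and 3, which are among the 4. miR-449a-5p was at 38.5 CPM in LPS replicate 1 and 50.2 CPM in LPS + GAS replicate 2. miR-34c-3p was at 50.1 to 91.7 CPM against 212 to 655 CPM, and miR-448-3p at 1.62 to 3.01 CPM against 19.4 to 67.7 CPM. Correlations between the members and with the list were computed over the 9 libraries. With the libraries in clusters of 5 and 4 by the summed level, they are not given as results, since neither cluster holds 6 libraries.

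**Figure D4:**
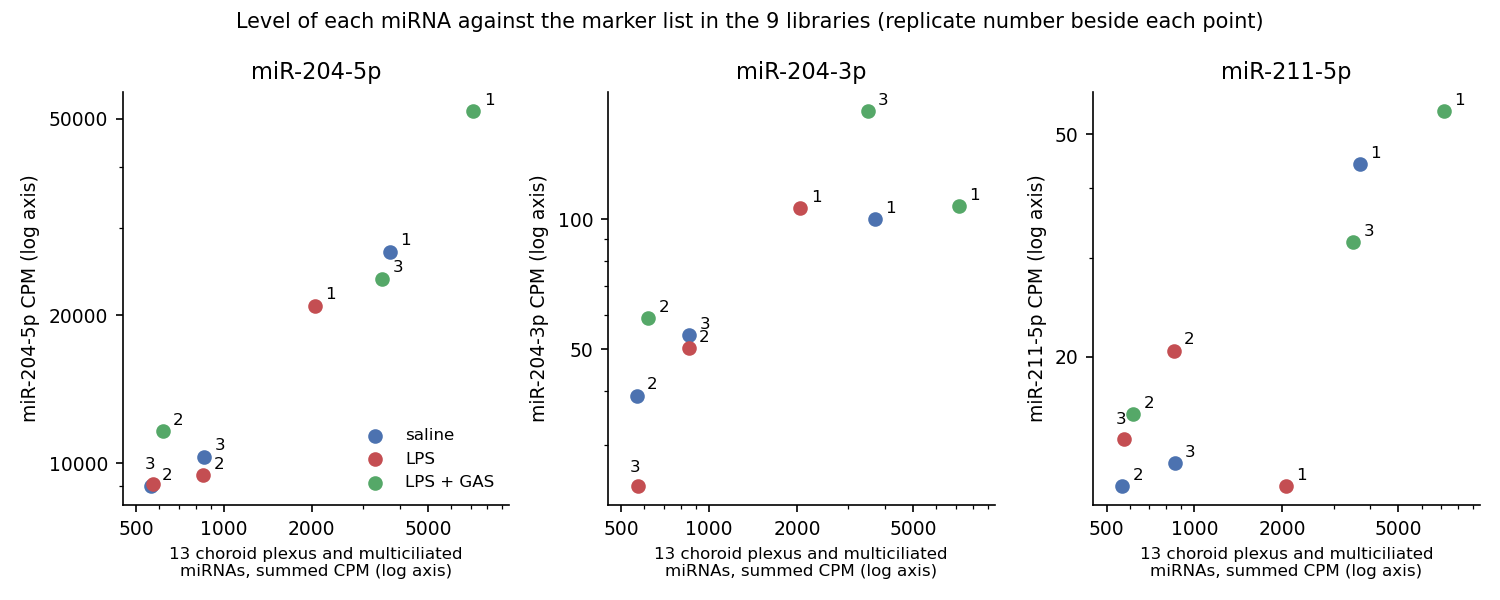
CPM of each miRNA (vertical log axis) against the summed CPM of the 13 tested choroid plexus and multiciliated miRNAs (horizontal log axis) in the 9 libraries, coloured by group, with the replicate number beside each point. Saline replicate 1, LPS replicate 1 and LPS + GAS replicates 1 and 3 lie to the right at 2054 CPM or more, and LPS replicate 1 is among the lowest for miR-211-5p alone.

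The marker list moved with the members' group values. For LPS vs saline its median was −0.52 on the log2 scale, where 1 of 13 values was positive, for LPS + GAS vs LPS it was 1.49, with 12 of 13 positive, and for LPS + GAS vs saline it was 1.10, with 13 of 13 positive, against medians of −0.045, 0.0030 and −0.028 over all 628 miRNAs. None of the 13 was called in any comparison (edgeR). Most of the 13 are strands of the Htr2c cluster or of miR-34b and miR-34c, so these are not counts of independent values. LPS + GAS replicates 1 and 3 are among the 4 libraries with a high sum, as is only replicate 1 of saline and of LPS. The share of the 628 with a positive value was not counted, so the signs are not read as a result about the treatment. The 5 miRNAs of the neuron list had medians of 0.19, −0.075 and −0.018. The 5 rows of the red blood cell list (miR-451a, miR-144-3p, miR-144-5p and the identical miR-486a-5p and miR-486b-5p) had medians of −0.36, 1.04 and 0.61. They summed to 2065 to 4317 CPM in saline, 2189 to 3274 CPM in LPS and 4606 to 6222 CPM in LPS + GAS, and none was called. The sum was mostly miR-451a, which averaged 3647 CPM, while the other rows averaged 2.17 to 43.1 CPM. For 1 of the 5 rows, miR-451a, each LPS + GAS library was above every LPS library. Of the 628 miRNAs, 8.6% had groups that did not overlap in that comparison, in either direction. In bulk tissue, fewer cells of a type and less RNA per cell cannot be told apart. The part of dissected choroid plexus or ependyma in the levels of the miR-204 strands and miR-211-5p was not tested.

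A second deposited value per library, named exp, was a whole number at or below the read count and fell further behind it as the count grew. For miR-204-5p there were 1.55 reads per exp in LPS replicate 3 and 3.90 in LPS + GAS replicate 1. Other miRNAs of about the same count behaved alike, with 1.45 to 1.59 and 3.67 to 3.96 reads per exp. The highest library therefore exceeded the lowest by 6.15 times in reads and by 2.44 times in exp. On exp values the log2 fold change of miR-204-5p was 0.49 in LPS + GAS vs LPS and 0.44 in LPS + GAS vs saline, in place of 1.14 and 0.92. miR-204-3p and miR-211-5p, with reads per exp of 1.00 to 1.02, kept values close to those from reads. The ratios on exp values were higher and ordered the libraries differently. miR-204-3p per miR-204-5p was then lowest in LPS replicate 3 (0.410%) and highest in LPS + GAS replicate 3 (1.81%), with 0.799% in LPS + GAS replicate 1, the lowest on reads. miR-211-5p per miR-204-5p was lowest in LPS replicate 1 (0.122%), as on reads, but highest in LPS + GAS replicate 1 (0.413%). The origin of the exp values is not stated, and whether reads or exp values lie closer to the number of molecules was not tested, so the ratios from reads above hold on the scale of reads only.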

How the data were processed

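Small RNA libraries of the mouse hippocampus were sequenced on a BGISEQ-500. The authors deposited 1 table of 1448 mature miRNAs with read counts per library, not normalized, and exp values, whole numbers of unstated origin. Its comparison columns, which the authors deposited as log2 fold changes and p-values or q-values, were not used. 0 columns of per-library values belong to no mapped sample, and 0 rows lack a name. The submitters' processing notes name GRCm38.p6. Neither the aligner nor its mismatch setting was given in the sources used here.

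Marker lists, like the members, were chosen with earlier results of these data known. miRNAs named are the members, miR-211-3p, rows with a member's seed or within 1 substitution, the 5 most like miR-204-5p, tested markers and neighbours in level. miR-27a-3p, miR-27b-3p, miR-378a-3p and miR-378c were named after their values were seen.

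Counts were fitted in R 4.3.3 with edgeR 4.0.16 (glmQLFit, glmQLFTest, TMM factors 0.914 to 1.19), with all 9 libraries in a single model and Benjamini-Hochberg adjustment over 628 miRNAs. Standard errors were derived from the F statistic, and 95% intervals from the t distribution with the fit's degrees of freedom. DESeq2 1.42.0, limma 3.58.1, other filters and scalings, the replicate number as a block and each library left out were alternatives. Exact permutation tests were two-sided, over 20 divisions of 6 libraries. The planned correlations of the members with each other and with the marker list were computed with exact permutation tests. They were not given as results, because the libraries fell into clusters of 5 and 4 by the summed level of the marker list. In the results above, Pearson's r over the 9 libraries served only to choose the 5 miRNAs most like miR-204-5p. The edgeR step was run on simulated data with planted changes, only as a check of the code. Those data had the same set spread for all miRNAs and not the wider one of the miRNAs described here, so they do not show what the test can detect for these.

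Deviations from the group means were correlated between libraries of the same number in LPS + GAS vs saline (r of 0.296, 0.329 and 0.370 over 628 miRNAs), which rests on these correlations alone. In LPS vs saline r was 0.317, 0.209 and −0.284, and in LPS + GAS vs LPS −0.109, 0.047 and −0.274. Host genes came from GENCODE release M21, sequences and coordinates from RefSeq.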

Additional observations from a re-analysis of the deposited data

How the results depend on the processing

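With 3 libraries per group and a within-group SD of 0.81 to 0.89 on the log2 scale, only large changes of these miRNAs could pass the test. Of the 252 values recomputed under alternatives, 18 reversed in direction and 234 did not. The 234 include the counts of called miRNAs, which have no direction. Each read ratio reversed in 1 to 3 of 8 alternatives per comparison, and these include a sign-flip test by replicate number, which cannot alter the value. The fold changes reversed in 1 to 3 of 17 alternatives in LPS vs saline and in 0 of 17 in the other comparisons, and none crossed the threshold. Under each of the 17 alternatives per comparison, 0 of the 3 miRNAs were called.

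With the replicate block, miR-204-5p had log2 fold changes of −0.14 in LPS vs saline, 1.01 (standard error 0.23, edgeR adjusted p = 0.530) in LPS + GAS vs LPS and 0.87 (standard error 0.22, edgeR adjusted p = 0.645) in LPS + GAS vs saline. The standard errors of miR-204-3p and miR-211-5p with the block were 0.52 and 0.52 in LPS + GAS vs LPS, and 0.50 and 0.51 in LPS + GAS vs saline. In LPS + GAS vs LPS, libraries of the same number did not deviate together (r of −0.109, 0.047 and −0.274), so the numbers gave no ground for a block there. The block changed no call.

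Leaving out 1 library gave miR-204-5p −0.73 to 0.48 in LPS vs saline, 0.43 to 1.65 in LPS + GAS vs LPS and 0.24 to 1.63 in LPS + GAS vs saline. For miR-204-3p the ranges were −0.79 to 0.41, 0.49 to 1.62 and 0.43 to 1.34, and for miR-211-5p −0.85 to 0.38, 0.62 to 1.49 and 0.10 to 1.52. The log2 difference in miR-204-3p per miR-204-5p read ranged from −0.26 to 0.24, from −0.36 to 0.57 and from −0.44 to 0.49, and that in miR-211-5p per miR-204-5p read from −0.57 to 0.41, from −0.56 to 0.41 and from −0.23 to −0.035. On exp values, the differences in LPS + GAS vs saline reversed to 0.39 for miR-204-3p and 0.28 for miR-211-5p per miR-204-5p value, and the cause was not tested.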
